A study of Mus musculus with 12 samples.

Results

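Cytosolic ribosomal protein genes were followed in mouse macrophages of the RAW264.7 line exposed to the saturated fatty acid palmitic acid, to recombinant FABP4, or to both. Genes were chosen by name alone, as those called Rpl or Rps with a number, Rplp0, Rplp1, Rplp2 or Rpsa, without the S6 kinases (Rps6k) and without pseudogene names ending in -ps. The arrays carried 86 such gene names on 191 probes, and 82 of them had a probe well above background on every array of 1 group or more, as did 17596 genes in all. All 82 were well above background on all 12 arrays, so no member entered through 1 group only. The brightest passing probe stood for each gene. The names comprised 49 of the large subunit, 32 of the small subunit, and Rps19bp1, a nucleolar binding partner of Rps19 that matches by name but is no ribosomal protein. Of the 81 others, 77 name structural proteins and 4 name paralogues (Rpl22l1, Rpl36al, Rpl7l1 and Rps27l).

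There were 4 groups with 3 arrays each. Cells received palmitic acid at 0.2 mM together with FABP4 at 200 nM, palmitic acid alone, FABP4 alone, or neither (control), and RNA was taken after 24 h. The medium of every group, control included, held fatty acid-free BSA at 0.5%. FABP4, or aP2, binds fatty acids inside adipocytes and macrophages, and here it was added to the medium as a recombinant protein. All samples came from 1 cell line. Whether the replicates were separate cultures is not stated in the labels, so the p-values cover the spread among these arrays, and that spread may be technical.

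Each ribosome joins a small subunit, which reads the mRNA, to a large subunit, which forms the peptide bonds, and a cell makes the proteins of both subunits in matched amounts. Their mRNAs are among the most abundant in growing cells and typically begin with a C followed by a run of pyrimidines, the 5′ terminal oligopyrimidine (TOP) motif, through which mTOR signalling controls their translation more than their level. Most of their promoters lack a TATA box and bind Ets family factors. An array measures the level of an mRNA and not its translation.

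Runs of pyrimidines near the annotated start, as in the TOP motif, are shown for 8 of the members that have one. RefSeq promoters of build GRCm38.p6 were found for 61 members. The windows run from 10 bases before to 20 bases after the annotated start, 5′ to 3′ on the gene's strand, with the pyrimidine run in capitals. Rps6 lies at chr4:86857348-86857377 (minus strand), Rps12 at chr10:23787190-23787219 (minus), Rps18 at chr17:33955646-33955675 (minus), Rps27 at chr3:90213629-90213658 (minus), Rpl13a at chr7:45128726-45128755 (minus), Rplp2 at chr7:141447641-141447670 (plus), Rpl28 at chr7:4792955-4792984 (plus) and Rpl22l1 at chr3:28805498-28805527 (plus).
Rps6: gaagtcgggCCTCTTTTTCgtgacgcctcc
Rps12: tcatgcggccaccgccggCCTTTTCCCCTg
Rps18: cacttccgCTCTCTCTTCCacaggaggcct
Rps27: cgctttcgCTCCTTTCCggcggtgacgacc
Rpl13a: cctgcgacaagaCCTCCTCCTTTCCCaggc
Rplp2: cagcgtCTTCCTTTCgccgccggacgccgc
Rpl28: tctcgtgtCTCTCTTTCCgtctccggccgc
Rpl22l1: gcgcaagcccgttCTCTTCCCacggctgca

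Counted from 1 at the annotated start, with -1 for the base before it, the runs begin at -1 in Rps6, 9 in Rps12, -2 in Rps18, Rps27 and Rpl28, 3 in Rpl13a, -4 in Rplp2 and 4 in Rpl22l1, and in none of these at the annotated start itself. Runs of at least 8 pyrimidines were counted that begin with C and overlap the 20 bases on either side of the annotated start. Some of them began farther upstream, as at -22 in Rps25. Such a run was present in 32 of the 61 members (52.5%), against 19.1% of the 27025 genes with a promoter. The annotated start may lie some bases from the start that the cells use. In the window of 250 bases before to 50 after the start, searched on both strands, the Ets core CCGGAA was present in 54.1% of the members and 16.7% of all genes, and the GC box GGGCGG in 63.9% and 38.2%. The YY1 core ATGGC was found in 57.4% of the members against 44.2% of all genes, and TATAAA in 11.5% against 15.7%. These are letter matches, which show no binding.

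The array measures each gene with a probe of 60 bases. Rpl30 encodes a large subunit protein that also binds its own transcript in yeast. Its probe is shown because Rpl30 had the largest difference of the members in palmitic acid with FABP4. On mm9, the build named in the file headers, it lies at chr15:34371013-34371072 (minus strand).
Rpl30 probe: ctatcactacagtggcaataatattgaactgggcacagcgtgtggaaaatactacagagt
Ribosomal protein genes have many processed pseudogenes, and 29 members had a brightest probe that shared at least 30 bases in a row with a probe listed under another name, 41 such probes in all. The Rpl30 probe shared 49 bases with a probe listed under a transcript identifier, the Rpl22 probe 43 bases with that of Gm13196 and the Rpl22l1 probe 54 bases with that of Gm15421. For such genes the signal of near-identical copies cannot be separated from that of the named gene. The files place the probe of Rps27 on chromosome 9 and that of Rps29 on chromosome 2, whereas RefSeq places the genes on chromosomes 3 and 12.

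Relative to each array's 75th percentile of signal, most ribosomal protein genes were highest in cells given palmitic acid with FABP4, by medians of 0.10 over palmitic acid and 0.12 over FABP4 on the log2 scale, which lay at 0.03 or below with quantile normalization, cyclic loess or no scaling. By limma 0 members passed in any comparison. The 4 comparisons and their interaction were fitted across all genes tested, with an adjusted p (Benjamini-Hochberg) under 0.05 as the threshold. Values are log2 of the processed signal minus the array's 75th percentile, and differences are given ± SE with 3 arrays per group. On this scale the differences of the 82 members lay between -0.12 and 0.24 over the 4 comparisons and the interaction. The highest of the 12 values lay on an array of palmitic acid with FABP4 for 73 members, and the lowest on palmitic acid array 1 or FABP4 array 2 for 63.

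**Figure D1:**
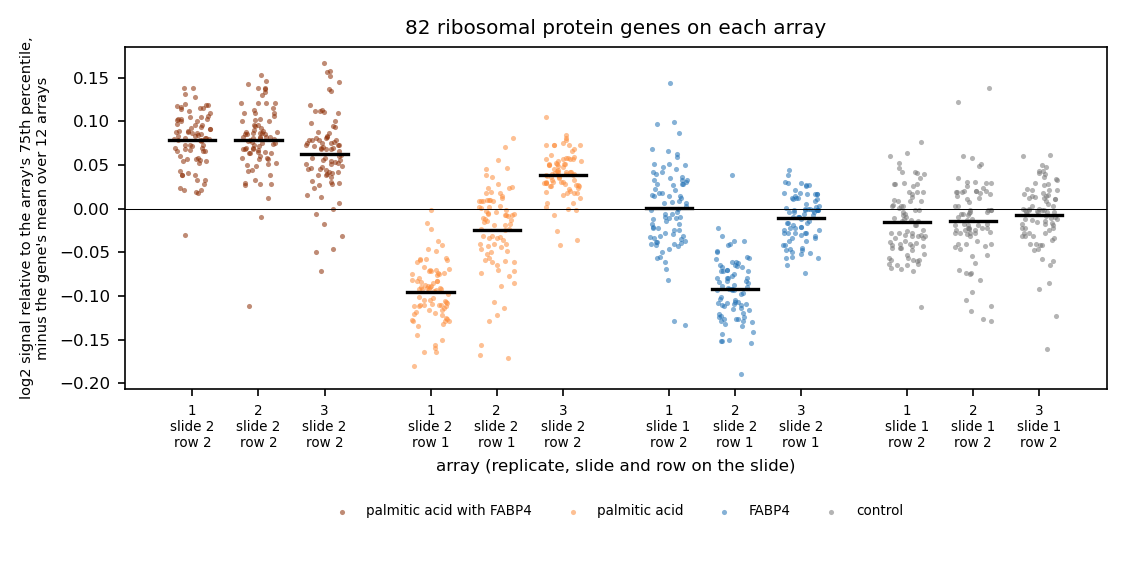
Each point is 1 of 82 ribosomal protein genes on 1 array, as log2 signal relative to the array's 75th percentile minus the gene's mean over the 12 arrays, and black lines are means over the genes. The genes move together from array to array, with means of 0.08, 0.08 and 0.06 in palmitic acid with FABP4, and of -0.10 on palmitic acid array 1 and -0.09 on FABP4 array 2.

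The members moved as a block on single arrays. Their mean, relative to each gene's own mean over the 12 arrays, was 0.08, 0.08 and 0.06 in palmitic acid with FABP4, -0.10, -0.02 and 0.04 in palmitic acid, 0.00, -0.09 and -0.01 in FABP4, and -0.02, -0.01 and -0.01 in control. On palmitic acid array 1 all 82 genes lay below their own mean, on FABP4 array 2 81 did, and on array 1 of palmitic acid with FABP4 1 did. The mean of the members on each array accounted for 67.2% of their variance around their own means, and the mean over all 17596 genes accounted for 1.73% of the variance of all genes. Genes of like brightness were not compared, so the common movement is not shown to be particular to the members. In palmitic acid the 3 arrays spanned most of the range, from -0.10 to 0.04, and in FABP4 they ran from -0.09 to 0.00. The arrays of control, and those of palmitic acid with FABP4, each lay close together.

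The 2 arrays on which the members lay lowest were bright as a whole, but palmitic acid array 2, also bright, had a member mean of -0.02. The log2 75th percentile itself, relative to its mean, was -0.10, -0.05 and 0.01 in palmitic acid with FABP4, 0.21, 0.14 and -0.10 in palmitic acid, 0.05, 0.10 and 0.01 in FABP4, and -0.08, -0.13 and -0.06 in control. Without scaling, the members' mean was -0.02, 0.03 and 0.08 in palmitic acid with FABP4, 0.11, 0.12 and -0.06 in palmitic acid, 0.05, 0.00 and 0.00 in FABP4, and -0.10, -0.14 and -0.06 in control. After quantile normalization it lay between -0.02 and 0.02 on every array, and the mean accounted for 9.53% of the members' variance. Palmitic acid array 1 and FABP4 array 2 thus stood lowest only after scaling. On slide 2 the members' level also went with the row. In row 2 of slide 2 lay palmitic acid array 3 and all of palmitic acid with FABP4, while palmitic acid arrays 1 and 2 and FABP4 arrays 2 and 3 lay in row 1 of that slide. On slide 1 all 4 arrays lay in row 2, with member means of 0.00 for FABP4 array 1 and -0.02, -0.01 and -0.01 for control, close to the -0.02 of palmitic acid array 2 and the -0.01 of FABP4 array 3 in row 1 of slide 2. The part of scaling and row in the members' shift was not tested beyond these values and the fits given with each comparison.

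The genes varied little, the common movement included. The SD over the 12 arrays had a median of 0.069 for the members and 0.13 for all genes tested, and all 82 members lay below the median of all genes. Rpl5, which carries 5S rRNA with Rpl11 and binds Mdm2, had the lowest SD of the members (0.042), and Rpl23a the highest (0.092). The SD within groups had a median of 0.054 for the members (0.036 to 0.077) and 0.10 for all genes. Members' signals lay between 645 and 301640 intensity units, and 0 were saturated. The array 75th percentiles were 250.1 to 315.3 units, so many of all genes tested were dimmer than the members. Genes of like brightness were not set beside the members, so the low SD is not shown to be particular to them.

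FABP4 in the presence of palmitic acid, the question of whether the added protein changes the response to the fatty acid, left 0 of 82 members past the threshold. By limma 0 of all 17596 genes passed here (0%), and the lowest adjusted p of a member was 0.806. At an unadjusted p under 0.05 there were 23 members, all higher with FABP4, against 5.88% of all genes in either direction. The median difference of the members was 0.10, against 0.03 for all genes, but -0.03 with no scaling of the arrays, and 81 members lay above 0 with Rpl7l1 at -0.05. All 3 arrays of palmitic acid with FABP4 lay above all 3 arrays of palmitic acid for 45 members, against 11.4% of all genes, and below them for 0 members, against 3.1% of all genes.

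Rps12, a small subunit protein, had the largest difference here. It had 9.68, 9.70 and 9.71 in palmitic acid with FABP4, against 9.48, 9.42 and 9.65 in palmitic acid. The groups did not overlap, but palmitic acid array 3 lay 0.03 below the nearest array of the other group, and the difference was 0.17 ± 0.06 (95% confidence interval 0.04 to 0.31, unadjusted p = 0.0158, adjusted p = 0.806 in limma). Rps3, a small subunit protein that also acts in DNA repair and as a partner of NF-kB, had 8.21, 8.21 and 8.24 in palmitic acid with FABP4, against 8.02, 8.09 and 8.14 in palmitic acid, a difference of 0.14 ± 0.05. Rps27a, made as a fusion with ubiquitin, had 10.06, 10.08 and 10.04 in palmitic acid with FABP4, against 9.90, 9.87 and 10.00 in palmitic acid, a difference of 0.13 ± 0.05. In each of these genes palmitic acid array 3 lay nearest to the arrays of palmitic acid with FABP4. Of the other members with the smallest p-values, Rpl14, Rps20 and Rps23 had 0.16, Rpl30 0.15, Rpl37 0.14, and Rpl7a and Rps3a 0.13.

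Within row 2 of slide 2 the gap was smaller. The mean of the 3 arrays of palmitic acid with FABP4 exceeded palmitic acid array 3 by a median of 0.03 over the members, with 74 of 82 above 0 and all 3 arrays above it for 40. Against palmitic acid arrays 1 and 2, in row 1, the median gaps were 0.17 and 0.10. With slide and row as a fixed block, a fit added after seeing the data, 0 members and 10 of all genes passed. The median difference was 0.03 in that fit. It was 0.02 with cyclic loess and 0.01 with quantile normalization, and the -0.03 without scaling stood beside a median of -0.09 for all genes.

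**Figure D2:**
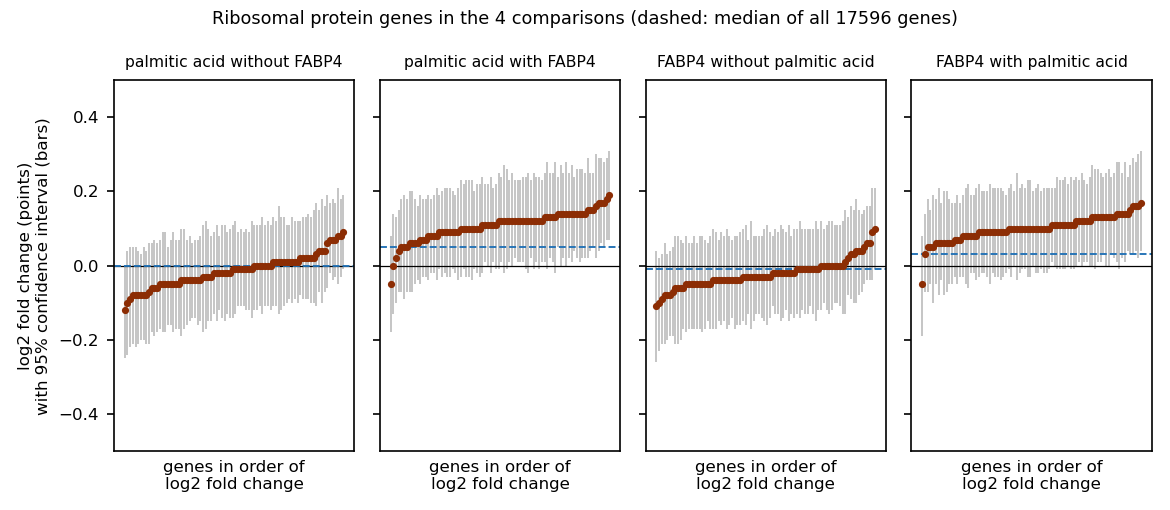
Points are log2 fold changes of the 82 ribosomal protein genes in each comparison, in order of size, with 95% confidence intervals as bars, and the dashed line is the median of all 17596 genes. With the 75th percentile as the scale the genes centre on -0.01 for palmitic acid without FABP4 and -0.03 for FABP4 without palmitic acid, and on 0.12 and 0.10 for palmitic acid with FABP4 and FABP4 with palmitic acid.

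Palmitic acid in the presence of FABP4, set against FABP4 alone, also left 0 of 82 members past the threshold, where 3.81% of all genes passed (504 up, 166 down). At an unadjusted p under 0.05 there were 34 members, all higher with palmitic acid, against 20.9% of all genes in either direction. The median difference was 0.12, against 0.05 for all genes, but -0.01 with cyclic loess, and it was 0.08 without FABP4 array 2. For 63 members all 3 arrays of palmitic acid with FABP4 lay above all 3 arrays of FABP4, against 19.3% of all genes, and for 0 members below, against 6.96%. The large and small subunit genes had medians of 0.11 and 0.12.

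Rpl19 came nearest to the threshold (adjusted p = 0.0787 in limma). This large subunit protein, whose mRNA often serves as a reference in PCR, had 8.89, 8.89 and 8.79 in palmitic acid with FABP4, against 8.69, 8.62 and 8.72 in FABP4, a difference of 0.18 ± 0.05. Rpl30 had 8.21, 8.25 and 8.20 in palmitic acid with FABP4, against 8.06, 7.98 and 8.05 in FABP4, and its difference of 0.19 ± 0.05 was the largest of the members (95% confidence interval 0.07 to 0.31, adjusted p = 0.0823). Neither gene's groups overlapped. Rps19, the first gene found mutated in Diamond-Blackfan anaemia in humans, had 7.65, 7.67 and 7.57 in palmitic acid with FABP4, against 7.49, 7.44 and 7.46 in FABP4 (0.17 ± 0.05, adjusted p = 0.105). The others among the 10 smallest p-values were Rps3 with 0.15, Rpl39 with 0.17, Rpl10 with 0.14, Rps27a with 0.15, the stalk protein gene Rplp1 with 0.14, Rpl29 with 0.17 and Rpl17 with 0.14, at adjusted p = 0.103 to 0.17.

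The calls in this comparison depended on the variance model and the median on the scaling. With trended and robust moderation 9 members passed, all higher: Rpl10, Rpl19, Rpl29, Rpl30, Rpl39, Rplp1, Rps19, Rps27a and Rps3. With normexp background correction Rpl19 alone passed (adjusted p = 0.049). The median of the members was 0.00 with quantile normalization, 0.02 with no scaling and 0.03 with slide and row as a fixed block, and 0 passed in each of these fits or with cyclic loess. Within slide 2 every FABP4 array lay in row 1 and every array of palmitic acid with FABP4 in row 2, where fatty acid and row cannot be told apart.

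Palmitic acid without FABP4, the effect of the fatty acid on its own, left the members near 0 while many other genes passed. Of 82 members 0 passed, where 8.61% of all genes did (858 up, 657 down), and 1 had an unadjusted p under 0.05, against 26.5% of all genes. The differences ran from -0.12 to 0.09 with a median of -0.01 (0.02 without palmitic acid array 1, -0.05 without palmitic acid array 3, and 0.16 with no scaling, where the median of all genes was 0.17), and each 95% confidence interval lay between -0.25 and 0.21. All 3 arrays of palmitic acid lay above all control arrays for 1 member, against 17.5% of all genes, and below them for 2, against 16.4% of all genes. The control arrays and the palmitic acid arrays lay on different slides, so fatty acid and slide cannot be told apart here without the FABP4 group. A fixed block for slide takes the slide difference from FABP4 array 1 against FABP4 arrays 2 and 3. In that fit the median was 0.04, the median SE was 0.09 and 0 members passed. Of all genes 138 passed there, against 1515 without the block.

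Rps18, a small subunit protein gene also used as a reference in PCR, had 7.63, 7.74 and 7.75 in palmitic acid, against 7.81, 7.88 and 7.79 in control. Its groups did not overlap, with a difference of -0.12 ± 0.05 (unadjusted p = 0.0483, adjusted p = 0.185 in limma), and after quantile normalization it had -0.15 and passed (adjusted p = 0.0349). Rps21 had 7.17, 7.18 and 7.26 in palmitic acid, against 7.13, 7.06 and 7.14 in control, the largest positive difference of the members (0.09 ± 0.05, adjusted p = 0.221). Rpl13a, which in human myeloid cells leaves the ribosome after interferon gamma and silences translation of inflammatory mRNAs, had 7.98, 8.03 and 8.06 in palmitic acid, against 7.95, 7.90 and 7.99 in control (0.07 ± 0.04, adjusted p = 0.32). Palmitic acid array 1 fell within the control range of Rpl13a, so these groups overlapped. Rps7 had 0.08 and Rpl31 -0.08.

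FABP4 without palmitic acid, the effect of the added protein on its own, also left the members near 0. Of 82 members 0 passed, where 0.017% of all genes did (3 genes), and 0 had an unadjusted p under 0.05, against 7.23% of all genes. The median was -0.03, against -0.01 for all genes, with 14 members above 0 and 68 below. Without FABP4 array 2, the array on which 81 genes lay below their mean, it was 0.01, and with no scaling it was 0.12, where the median of all genes was 0.13. Control arrays lay on slide 1 only, as did FABP4 array 1, while FABP4 arrays 2 and 3 lay on slide 2. FABP4 and slide are thus partly mixed here. When slide was blocked, the difference rested on FABP4 array 1 against the control arrays. The members then had a median of 0.01 and a median SE of 0.07, and 0 passed. Of all genes 103 passed with that block and 77 with slide and row blocked, against 3 without a block. All FABP4 arrays lay above the control arrays for 1 member, against 4.01% of all genes, and below them for 7, against 6.4%. Rpl4, the largest positive difference, had 8.12, 8.07 and 8.11 in FABP4, against 7.98, 8.03 and 8.00 in control (0.10, adjusted p = 0.739), with no overlap. Rps15, the most negative, had 7.81, 7.83 and 7.94 in FABP4, against 7.94, 8.00 and 7.96 in control (-0.11), and Rps18 had -0.10.

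The interaction asks whether palmitic acid acted differently with FABP4 than without it. In the fit without a block it did not pass for any member or any other gene (0% of all genes). With an unadjusted p under 0.05 there were 10 members, all positive, against 6.92% of all genes in either direction. Rpl30 had 0.23 ± 0.07 and Rps12 0.24 ± 0.09 (adjusted p = 0.647 and 0.68 in limma). The median was 0.13, against 0.04 for all genes. It was 0.03 with slide and row as a fixed block, 0.02 with quantile normalization and 0.03 with cyclic loess. With no scaling it was -0.15, where the median of all genes was -0.23. The slide as a fixed block gave 37 passing genes, and slide and row gave 15, with 0 members in either fit. The comparisons share groups with each other: palmitic acid with FABP4 enters both comparisons with positive medians, so these are not independent of each other.

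The precision of these arrays limits the size of the members' differences on this scale, in the fit without a block for slide. The median SE of a member's difference was 0.05 in each of the 4 comparisons, against 0.08 for all genes, many of which were dimmer. For all 82 members the 95% confidence interval lay within 0.5 of 0 in each comparison and in the interaction. It lay within 0.25 of 0 for all 82 in palmitic acid without FABP4, for 60 in palmitic acid with FABP4, for 81 in FABP4 without palmitic acid, and for 66 in FABP4 with palmitic acid. A change that the members shared with the 75th percentile of the array would not show in these intervals.

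**Figure D3:**
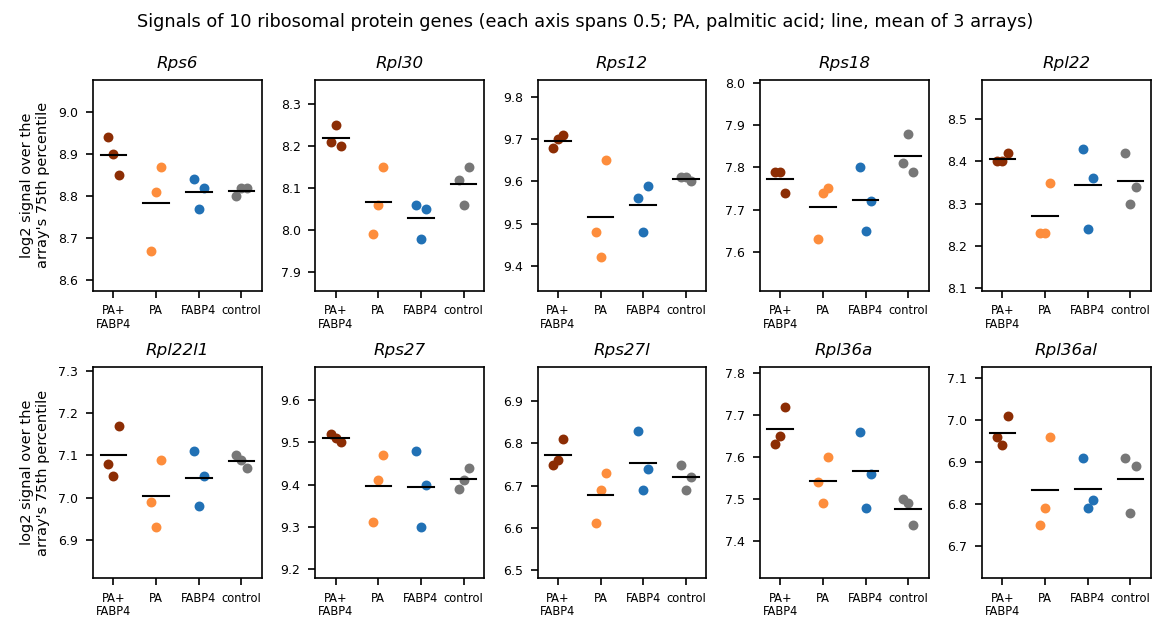
Log2 signal over the array's 75th percentile of 10 ribosomal protein genes, with a point per array, a line at the mean of 3 arrays, and a span of 0.5 on every axis (PA, palmitic acid). Rps12 and Rpl30 stood highest on the 3 arrays of palmitic acid with FABP4, Rps18 had its highest mean in control, and the arrays of Rpl22l1 overlapped between all groups.

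Members with roles outside translation or in disease gave differences of the same small size. Rps6, the target of S6 kinase, had 8.94, 8.90 and 8.85 in palmitic acid with FABP4, 8.67, 8.81 and 8.87 in palmitic acid, 8.84, 8.77 and 8.82 in FABP4, and 8.80, 8.82 and 8.82 in control. Palmitic acid arrays 1 and 3 lay farther apart than the means of any pair of groups. Rpl5 had 7.44, 7.43 and 7.44 in palmitic acid with FABP4, 7.31, 7.43 and 7.44 in palmitic acid, 7.39, 7.37 and 7.36 in FABP4, and 7.43, 7.40 and 7.38 in control, and its partner Rpl11 had 0.12 for FABP4 with palmitic acid. The stalk proteins Rplp0, Rplp1 and Rplp2, which recruit elongation factors, had 0.12, 0.08 and 0.08 for FABP4 with palmitic acid and 0.01, 0.01 and -0.04 for palmitic acid without FABP4. Rpsa, also known as the laminin receptor, had 0.12 and -0.06 in those comparisons, Rps14, whose human gene lies in the region deleted in 5q- syndrome, 0.13 and -0.02, and Rpl10, mutated in human leukaemia, 0.11 and 0.02.

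In a paralogue pair a second gene encodes a near copy of a ribosomal protein. Rpl22 and Rpl22l1, whose products can replace each other in mouse cells, had 0.13 ± 0.06 and 0.10 ± 0.06 for FABP4 with palmitic acid, and both had -0.08 ± 0.06 for palmitic acid without FABP4. Rps27 and Rps27l, the copy known as a p53 target in humans, had 0.11 and 0.10 for FABP4 with palmitic acid, and 0.12 and 0.02 for palmitic acid with FABP4. Rpl36a and Rpl36al had 0.12 and 0.14 for FABP4 with palmitic acid. No difference within a pair was tested. Rpl7l1, a relative of Rpl7 whose yeast counterpart acts in ribosome assembly, had 1.43, 1.29 and 1.33 in palmitic acid with FABP4, 1.40, 1.39 and 1.43 in palmitic acid, 1.32, 1.44 and 1.44 in FABP4, and 1.43, 1.54 and 1.38 in control. It had -0.05 ± 0.06 in each of the 4 comparisons, whereas Rpl7 had 0.13 ± 0.05 for FABP4 with palmitic acid. Rps19bp1, the name that is no ribosomal protein, had 0.06 ± 0.06 for FABP4 with palmitic acid and -0.10 ± 0.06 for palmitic acid without FABP4, where its groups did not overlap.

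The 4 gene names that did not pass the detection rule name copies of other members. Rpl10l and Rpl39l, known from the testis, were not well above background on any array, with signals of 4.5 to 12.3 and 5.41 to 7.28 intensity units, and Rps4y2 was not either (5.23 to 8.42). Rpl3l, the copy of Rpl3 in heart and skeletal muscle, was well above background on 1 array (5.05 to 96.5). Rpl10, Rpl39 and Rpl3 were among the 82.

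Further probes of the same genes mostly had the sign of the brightest one in the comparisons with palmitic acid and FABP4 together. Of 57 members with more than 1 passing probe, the 101 other probes had the sign of the brightest in 99 cases for FABP4 with palmitic acid, in 95 for palmitic acid with FABP4, in 63 for FABP4 without palmitic acid and in 57 for palmitic acid without FABP4. Probes of a gene lie on the same arrays and share their scaling. In the fit to every probe, 1 of 183 passed, a dim second probe of Rpl15 with -0.28 ± 0.07 for palmitic acid without FABP4 (adjusted p = 0.0431), where the brightest Rpl15 probe had -0.02 ± 0.06. Fau and Gnb2l1 (Rack1), which belong to the small subunit but not to the name rule, had 0.13 and 0.18 for FABP4 with palmitic acid and 0.16 and 0.10 for palmitic acid with FABP4, and neither passed.

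Genes that make ribosomes or steer them were described by lists. In palmitic acid without FABP4, 6 of 65 ribosome biogenesis genes fell and 0 rose (median -0.07), where 8.61% of all genes passed in either direction. Rrp1b, a nucleolar protein of rRNA processing, had -0.14, -0.08 and 0.08 in palmitic acid, against 0.53, 0.57 and 0.46 in control, a difference of -0.57 ± 0.10 (adjusted p = 0.0107 in limma), and the groups did not overlap. Nop56, a core protein of the box C/D particles that methylate rRNA, and Pes1, of a complex that processes rRNA of the large subunit, had -0.19 and -0.35, and the others were Dkc1, Ddx56 and Grwd1. Of 19 RNA polymerase I genes 1 fell, Cd3eap, a polymerase subunit, by 0.46 ± 0.07 (adjusted p = 0.00564), and 0 rose. Of 27 translation initiation genes 0 passed, while 22 elongation factor and other TOP mRNA genes gave 2 falls, of Eef1g by 0.26 ± 0.06 and of Eef2k. All of these calls ended with the slide as a fixed block, some at a smaller size and some at a similar or larger size with a wider error. In that fit Rrp1b had -0.29 ± 0.16, Cd3eap -0.24 ± 0.10, Nop56 -0.09 ± 0.07, Dkc1 -0.09 ± 0.13 and Ddx56 -0.14 ± 0.10, whereas Pes1 had -0.44 ± 0.16, Grwd1 -0.26 ± 0.09 and Eef1g -0.26 ± 0.12 (adjusted p = 0.209 to 0.807 for these 8). With no scaling between arrays, where the median of all genes was 0.17, Rrp1b and Cd3eap passed at -0.40 and -0.29, and the other 5 biogenesis calls ended at -0.18 to -0.02 and that of Eef1g at -0.08. The mean of the probes of Eef1g gave -0.09 ± 0.05 (adjusted p = 0.314 in limma), so its call rested on the brightest probe. That call also ended without the filter on dim probes (adjusted p = 0.124) and in a fit of only the groups compared (adjusted p = 0.0712). Leaving out single arrays kept the calls of Rrp1b, Cd3eap and Eef2k in all 12 fits, and ended each of the other named ones in at least 6, at the highest without control array 1 for Eef1g, Pes1 and Dkc1 (adjusted p = 0.0918, 0.124 and 0.131), without control array 3 for Nop56 and Ddx56 (adjusted p = 0.118 and 0.127) and without palmitic acid array 2 for Grwd1 (adjusted p = 0.104).

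Eef2k, the kinase that inhibits elongation factor 2, was well above background on the 6 arrays without palmitic acid and on none of those with it. Its estimated fall was 1.51-fold in palmitic acid with FABP4, with a mean of -3.44, against -2.81 in FABP4 (adjusted p = 0.0131 in limma). It was 1.52-fold in palmitic acid, with a mean of -3.32, against -2.71 in control (adjusted p = 0.00977). These folds set the brighter group's mean against the higher of the probe's own signal and the lowest signal well above background on each dim array. They leave out the error of the means and depend on the background correction, so they are no lower bounds. The gene was tested only because it was detected without palmitic acid, so its calls are not independent of the detection filter. With normexp background correction it had -0.10 with FABP4 (adjusted p = 0.405) and -0.26 without it (adjusted p = 0.0374), and neither call held under trended and robust moderation (adjusted p = 0.10 with FABP4 and 0.0804 without it). Without the filter on dim probes the call with FABP4 ended (adjusted p = 0.0593), as it did in a fit of only the groups compared (adjusted p = 0.0873). In the fit that blocks on slide Eef2k had -0.68 ± 0.12 with FABP4 (adjusted p = 0.021) and -0.77 ± 0.19 without it (adjusted p = 0.112), and without FABP4 array 2 the call with FABP4 ended (adjusted p = 0.0544).

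With FABP4 present, 3.81% of all genes passed for palmitic acid, against the 8.61% without FABP4, and no difference between these comparisons was tested for a list. Tsr1, an assembly factor of the small subunit, fell by 0.27 ± 0.05 (adjusted p = 0.024) as the 1 call among 65 biogenesis genes, and Cd3eap fell by 0.34 while Taf1c, of the polymerase I initiation factor, rose by 0.28. Among 27 initiation genes 1 rose, Eif2b2 by 0.23, a subunit of the exchange factor of eIF2. Of 18 mTOR and S6 kinase genes 1 rose in this comparison: Ddit4, a stress-induced inhibitor of mTOR complex 1, had 5.23, 5.27 and 5.29 in palmitic acid with FABP4, against 4.15, 4.43 and 4.85 in FABP4, a rise of 0.78 ± 0.14 (adjusted p = 0.0156), and it held with the slide as a fixed block at 0.62 (adjusted p = 0.023). In palmitic acid without FABP4 that list gave 1 rise, of Rragc, and 2 falls, of Eif4ebp2 and Pdcd4. Ddit4 did not pass there, with 5.19, 5.16 and 5.33 in palmitic acid, against 4.79, 4.88 and 5.00 in control. Its FABP4 arrays had a lower mean and a wider spread than its control arrays. Mxd1, an antagonist of MYC, rose in both palmitic acid comparisons, by 0.39 with FABP4 and by 0.32 without it, and held without each array in turn. Of the 8 genes of the MYC list, Mnt also rose with FABP4, by 0.26, and Mxd4 fell without it, by 0.39. With slide and row as a fixed block all 8 calls of these lists in this comparison ended (adjusted p = 0.185 to 0.76), in a fit where 11 of all genes passed. Leaving out array 1 of palmitic acid with FABP4 ended the calls of Tsr1, Cd3eap, Taf1c, Eif2b2 and Mnt there (adjusted p = 0.0948, 0.106, 0.164, 0.136 and 0.113), and leaving out array 2 that of Ddit4 (adjusted p = 0.0596). With no scaling between arrays Ddit4 passed at 0.69 (adjusted p = 0.0498), and the calls of Tsr1, Cd3eap, Taf1c, Eif2b2, Mxd1 and Mnt with FABP4 ended. Without FABP4, leaving out control array 3 ended those of Eif4ebp2, Rragc and Pdcd4 (adjusted p = 0.0915, 0.0951 and 0.12), and the block for slide ended those of Mxd1 and Mxd4 (adjusted p = 0.219 and 0.362). With no scaling Rragc and Mxd1 passed there, at 0.42 and 0.49, and the calls of Eif4ebp2, Pdcd4 and Mxd4 ended. In the FABP4 comparisons and the interaction 0 genes of these 7 lists passed in limma.

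**Figure D4:**
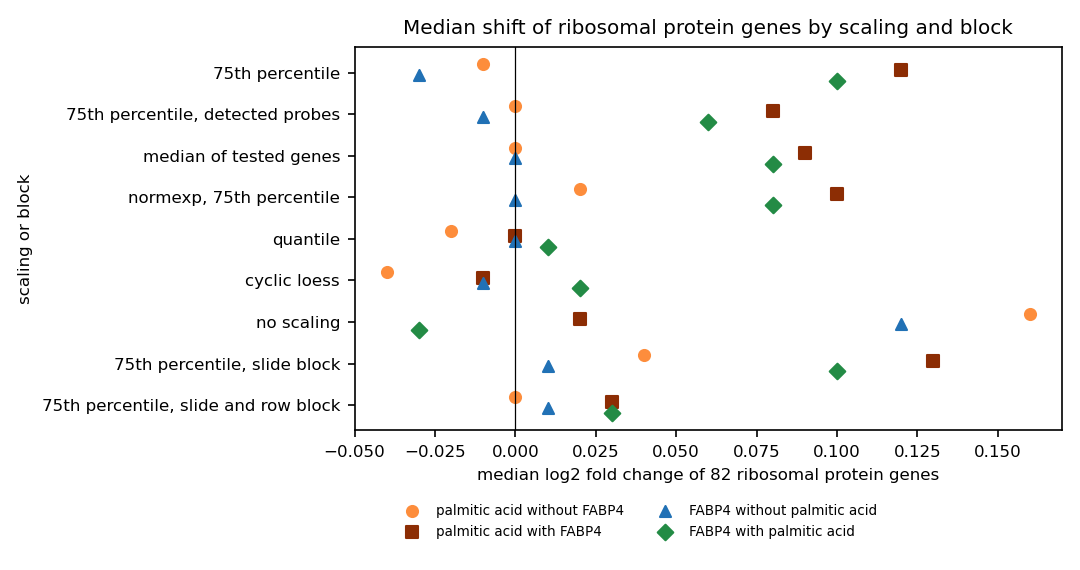
Median log2 fold change of the 82 ribosomal protein genes (horizontal axis) in the 4 comparisons (symbols) under 9 ways of scaling the arrays or blocking the fit (vertical axis). The medians of 0.12 and 0.10 for palmitic acid with FABP4 and FABP4 with palmitic acid, at the 75th percentile, lie at 0.03 or below with quantile normalization, cyclic loess, no scaling, or slide and row as a block.

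On each array 59305 non-control spots were read, of which 42.8% to 46.7% were well above background, with a 75th percentile of 250.1 to 315.3 intensity units. Of the 9 macrophage genes on the array, 8 were well above background on all 12 arrays and Mertk on none. Markers of other cells were in part present: 2 of 5 dendritic cell genes (Itgax and Zbtb46), 2 of 5 neutrophil genes (S100a8 and Elane), 2 of 4 T cell genes (Cd3e and Cd4), 1 of 3 B cell genes (Cd79a), 1 of 5 fibroblast genes (Col1a2) and 1 of 5 adipocyte genes (Retn) were well above background on all 12 arrays. Adipoq, Plin1, Cfd and Lep of adipocytes, Col1a1 and Pdgfra of fibroblasts, Ly6g, S100a9, Cd3d, Cd8a and Ms4a1 were on none. FABP4 array 1 and the 3 control arrays shared slide 1, and the other 8 shared slide 2. Of 6 osteoclast genes tested, the other fate of this line, 3 rose (Tm7sf4, Atp6v0d2 and Ctsk), 1 fell (Mmp9) and 2, Acp5 and Oscar, did not pass in each palmitic acid comparison. Of all genes 8.61% passed in palmitic acid without FABP4 and 3.81% in palmitic acid with FABP4. Mmp9 was dim, at -2.90, -2.86 and -3.09 in palmitic acid and -3.25, -3.37 and -3.13 in palmitic acid with FABP4. Of 8 macrophage genes tested, 2 rose in palmitic acid with FABP4. Without FABP4 1 rose and 1 fell, and Retn also fell. Control and palmitic acid arrays lay on different slides, and these marker calls were not followed with a block for slide. The signal of the 7 osteoclast genes on the array was summed without scaling between arrays. The sum was 7238 to 8347 in palmitic acid with FABP4 and 7443 to 8760 in palmitic acid. In FABP4 it was 5867 to 6170 and in control 5172 to 5399. These sums include the brightness of each array, and palmitic acid arrays 1 and 2 were brighter as a whole than the control arrays. Calcr was well above background on none of the arrays. The part of the osteoclast genes in the ribosomal protein levels was not tested.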

How the data were processed

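Cy3-labelled RNA of each sample went onto 1 Agilent array, per the labels. Per the file headers, Agilent Feature Extraction 10.7.3.1 gave each spot a processed intensity, linear, background-subtracted and without normalization across arrays. The deposited value table of the authors equals these intensity values within 0.005. Groups came from the labels.

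The log2 intensity of each spot was set relative to the 75th percentile of its array over non-control spots. Control and outlier spots (10 array values among tested genes, 0 among members) were dropped and spots of a probe averaged, which left 55681 probes. Of these, 23911 stood well above background on every array of 1 group or more, and the brightest per gene left 17596 genes. All 12 arrays entered 1 linear model of the 4 groups (limma 3.58.1 lmFit and eBayes, two-sided, R 4.3.3, data.table package in version 1.17.8), with an adjusted p under 0.05 (Benjamini-Hochberg, over all genes) as the threshold. The number of arrays limits the precision.

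Members, lists and tests were chosen with earlier results of these data known. Named are, per comparison, the 10 members with the smallest p-values where fewer than 10 are called, members with known further roles, paralogue pairs, and the 3 smallest p-values per related list; not each is reported. The calls in those lists and the array-by-array values of other members were also given, chosen after their values were seen. Alternatives were other scalings and background corrections, filters, probe rules, variance models, slide and replicate blocks and leaving out each array. Names and promoters came from RefSeq (73 members matched by accession). The fit was tested on simulated data. Figures used matplotlib 3.10.9 in Python 3.11.15.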

Additional observations from a re-analysis of the deposited data

How the results depend on the processing

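Of the 82 members, 0 passed in any comparison, and this held in 148 of 152 alternative fits of a comparison. The exceptions were palmitic acid with FABP4 with trended and robust moderation (9 members, all higher) and normexp background correction (1), and palmitic acid without FABP4 with no scaling (3, all higher) and quantile normalization (1, lower). Leaving out any 1 array gave 0 members past the threshold in every comparison. The median of the members stayed within the spread of the array medians (SD 0.043) in 132 of 152 fits. It was 0.16 for palmitic acid without FABP4 and 0.12 for FABP4 without palmitic acid with no scaling, where the medians of all genes were 0.17 and 0.13. In that fit it was 0.02 for palmitic acid with FABP4, -0.03 for FABP4 with palmitic acid and -0.15 for the interaction. With quantile normalization these last 3 medians were 0.00, 0.01 and 0.02, with cyclic loess -0.01, 0.02 and 0.03, and with slide and row as a fixed block 0.03 each. Scaled on the members' own median, which sets their common movement to about 0 by construction, they were 0.03, 0.00 and 0.00. Slide as a fixed block gave 0.04 for palmitic acid without FABP4. The median of tested genes gave 0.08 for the interaction and the percentile over detected probes 0.07. The cause of these shifts was not tested. The fits on slide and row and on the members' median were chosen after seeing the data. Sign changes of members that passed in neither fit were not counted as reversals, and no called value reversed.

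Replicate numbers did not pair the arrays, since deviations of same-numbered arrays correlated between -0.08 and 0.07. With a replicate block the medians were 0.12 for palmitic acid with FABP4, 0.10 for FABP4 with palmitic acid, -0.03 for FABP4 without palmitic acid and 0.13 for the interaction, and 0 members passed.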
